A study of Mus musculus with 9 samples.

Results

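Tregs (regulatory T cells, the Foxp3-expressing CD4 T cells that restrain immune responses) act on their neighbours through secreted cytokines, through surface enzymes and through receptors that remove co-stimulation. The 9 genes described here encode such tools and the receptor for the main cytokine among them: Il10, Il10ra, Il10rb, Ebi3, Il12a, Ctla4, Entpd1, Nt5e and Fgl2. They were taken by name from 22180 genes that had an array feature of their own, and the brightest feature was used where a gene had several. All 9 passed the filter on dim genes, which asked that a gene exceed the array median on 3 or more of the 9 arrays and left 12792 genes to test.

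The RNA came from Tregs of Y3/CD103-/- mice, Y3 mice and wild-type (WT) mice, with 3 Affymetrix mouse Gene ST2.0 arrays per genotype. All mice were C57BL/6 and carried a red fluorescent protein linked to Foxp3, on which the cells were sorted from lamina propria of small and large intestine. CD103 is the αE integrin chain, encoded by Itgae. The labels do not say what Y3 is. The series title points to IL-2Rβ, the receptor chain encoded by Il2rb. No group lacked CD103 alone, and the labels give no age and do not say whether the arrays of a group came from separate animals or from pools, so p-values measure only the spread between these arrays.

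IL-10 binds a receptor made of a ligand-binding chain, encoded by Il10ra, and a chain shared with other cytokines of the family, encoded by Il10rb, and it signals through the kinases JAK1 and TYK2 to the transcription factor STAT3. In the gut, IL-10 made by Tregs is needed to hold back inflammation, and Tregs also respond to it themselves. IL-35 is a pair of Ebi3 and Il12a products, CTLA-4 takes the ligands CD80 and CD86 from antigen-presenting cells, and the ectoenzymes CD39 (Entpd1) and CD73 (Nt5e) turn extracellular ATP by steps into adenosine. FGL2 is a secreted fibrinogen-like protein that acts through an inhibitory Fc receptor.

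Treg genes had clear signal in the sorted cells. All 11 measured Treg defining markers lay above the array median on every array. Their mean log2 signal ran from 8.12 to 8.21 on Y3/CD103-/- arrays, from 8.25 to 8.34 on Y3 arrays and from 8.38 to 8.39 on WT arrays, so it too was lower on every Y3/CD103-/- and Y3 array than on every WT array. The summed linear signal of these markers overlapped with WT in both genotypes. With limma, 2 of the 11, Il2ra and Lrrc32, fell in Y3/CD103-/- against WT, where 0.281% of tested genes fell. In Y3 against WT, 0 of the 11 passed. Foxp3 averaged log2 9.55 in Y3/CD103-/-, 9.52 in Y3 and 9.38 in WT Tregs. Itgae averaged 6.52 in Y3/CD103-/-, 9.32 in Y3 and 7.93 in WT Tregs, so the arrays labelled as lacking CD103 were the lowest, though with signal left. Il2rb averaged 8.16 in Y3/CD103-/-, 8.15 in Y3 and 9.19 in WT Tregs. Its log2 difference from WT was -1.03 in Y3/CD103-/- (limma adjusted p = 0.059) and -1.04 in Y3 (limma adjusted p = 0.0565), and neither passed. Genes of other cells were measured on the same arrays. The mean log2 signal of 28 macrophage, monocyte and dendritic markers ran from 3.87 to 4.05 on Y3/CD103-/- arrays, from 3.79 to 3.84 on Y3 arrays and from 4.09 to 4.36 on WT arrays. Their summed linear signal ran from 682 to 717 on Y3/CD103-/- arrays, from 620 to 753 on Y3 arrays and from 770 to 1146 on WT arrays. Of the 28, between 18 and 23 exceeded the array median on Y3/CD103-/- arrays, between 17 and 21 on Y3 arrays and between 19 and 24 on WT arrays. Csf1r and C1qa did so on all 9 arrays, and Cd14, Cd163 and Csf3r on 0. For 31 epithelial markers the mean log2 signal ran from 3.70 to 5.10 on Y3/CD103-/- arrays, from 3.66 to 4.14 on Y3 arrays and from 4.66 to 5.80 on WT arrays. Of the 31, 23 to 27 exceeded the array median on Y3/CD103-/- arrays, 21 to 26 on Y3 and 27 to 31 on WT arrays. Signal above the array median thus does not by itself show which cells were sorted. For 17 B and plasma cell markers the mean log2 signal ran from 3.31 to 3.47 on Y3/CD103-/- arrays, from 3.15 to 3.40 on Y3 arrays and from 3.32 to 3.51 on WT arrays.

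**Figure D1:**
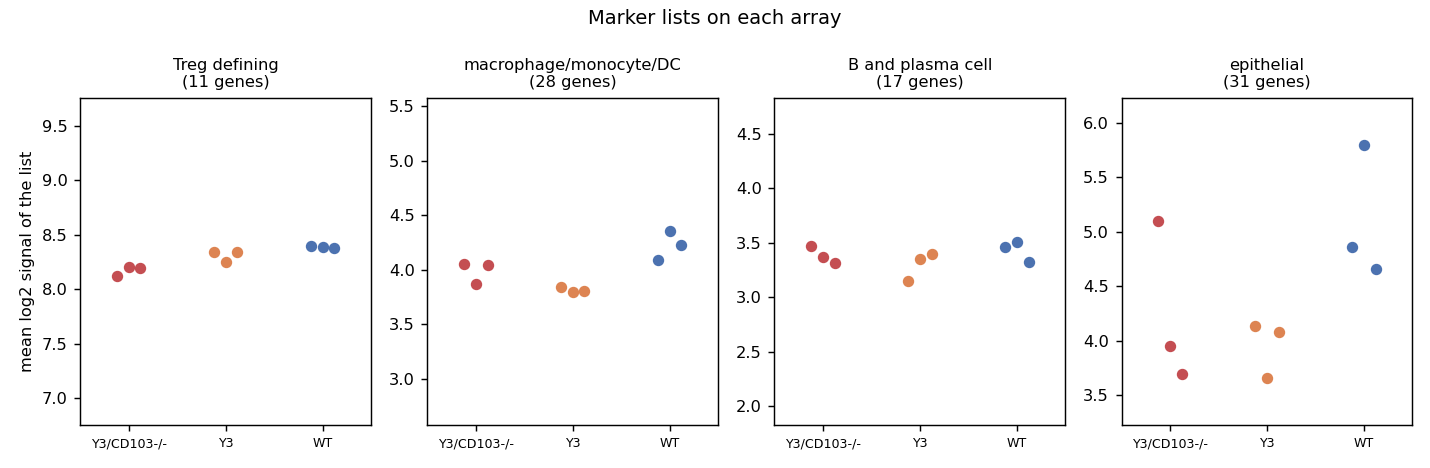
Mean log2 signal of the measured genes of 4 marker lists (vertical axis, a range of equal height in each panel) on each array, with 1 point per array, grouped by genotype. The myeloid list and the Treg list both lay lower on every Y3/CD103-/- and Y3 array than on every WT array.

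The receptor chain Il10ra was the member that fell. It had log2 signals of 4.09, 4.38 and 3.95 on the Y3/CD103-/- arrays, 4.58, 5.00 and 4.97 on the Y3 arrays and 5.62, 5.88 and 6.06 on the WT arrays. The 3 genotypes did not overlap, and the order of their levels was Y3/CD103-/- lowest, Y3 between and WT highest. In Y3/CD103-/- against WT the gene fell 3.29-fold (log2 difference -1.72 ± 0.19 (SE), 95% interval -2.13 to -1.30, limma adjusted p = 0.00356), and by p it ranked 8 of 12792 genes. In Y3 against WT it fell 2.01-fold (-1.01 ± 0.19, interval -1.42 to -0.59, limma adjusted p = 0.0393). Between Y3/CD103-/- and Y3 the difference was -0.71 ± 0.19 (interval -1.13 to -0.29), which did not pass (limma adjusted p = 0.314). Both comparisons with WT share the WT arrays.

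The fall against WT in Y3/CD103-/- passed whichever of the 9 arrays was left out (limma adjusted p from 0.00534 to 0.0243). The fall in Y3 passed in 3 of those 9 cases. The limma adjusted p was 0.0966 without WT array 2, 0.102 without WT array 3, 0.191, 0.0775 and 0.145 without Y3 arrays 1, 2 and 3, and 0.0544 without Y3/CD103-/- array 1. Macrophages are known to carry this receptor. Of 22 tested myeloid markers, 13 were lower and 9 higher in Y3/CD103-/- against WT (median log2 difference -0.07), and 17 were lower and 5 higher in Y3 against WT (median -0.39). Lyz1, a lysozyme gene that Paneth cells of the gut also express, differed most, by -3.86 in Y3/CD103-/- and -2.18 in Y3, and Cd68 was higher, by 0.74 in Y3/CD103-/- and 0.77 in Y3. Of 28 tested epithelial markers, 28 were lower in both comparisons with WT, with a median of -0.67 in Y3/CD103-/- and -1.09 in Y3. With limma, 0 genes of either list passed. By an unadjusted p under 0.05, 4 myeloid markers were lower and 1 higher in Y3/CD103-/-, and 7 lower and 1 higher in Y3. By that measure 9 epithelial markers were lower in Y3/CD103-/- and 17 in Y3. Across all tested genes, 5.35% were lower and 7.9% higher in Y3/CD103-/-, and 3.6% lower and 13.4% higher in Y3. The part of other cells in the fall of Il10ra was not tested. In bulk samples, fewer cells of a type and less RNA per cell cannot be told apart.

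The cytokine gene Il10 itself was lower in both genotypes, by an amount that did not pass. Its log2 signals were 9.46, 9.87 and 9.48 on the Y3/CD103-/- arrays, 9.55, 9.60 and 10.02 on the Y3 arrays and 10.32, 10.46 and 10.48 on the WT arrays. Every WT array stood above every other array, while Y3/CD103-/- and Y3 overlapped. The log2 difference from WT was -0.81 ± 0.18 (SE) in Y3/CD103-/- (1.76-fold, interval -1.21 to -0.41, limma adjusted p = 0.0688) and -0.69 ± 0.18 in Y3 (1.62-fold, interval -1.09 to -0.29, limma adjusted p = 0.106). With a spread estimate that follows signal level and resists outlying genes (eBayes with trend and robust), the limma adjusted p was 0.00141 in Y3/CD103-/- and 0.00629 in Y3. Under the other settings tried it ran from 0.0514 to 0.196 in Y3/CD103-/- and from 0.0588 to 0.343 in Y3, arrays left out included.

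The shared receptor chain Il10rb did not pass in any comparison. It had log2 signals of 4.96, 5.11 and 5.26 on the Y3/CD103-/- arrays, 5.41, 5.13 and 5.76 on the Y3 arrays and 5.34, 5.52 and 5.42 on the WT arrays. The Y3/CD103-/- arrays lay below all WT arrays, and the Y3 arrays spread over both sides of WT. The log2 difference was -0.32 in Y3/CD103-/- against WT (interval -0.72 to 0.09, limma adjusted p = 0.498) and 0.01 in Y3 against WT (interval -0.40 to 0.41, limma adjusted p = 0.986). After quantile normalization the difference of Y3 from WT was -0.18.

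**Figure D2:**
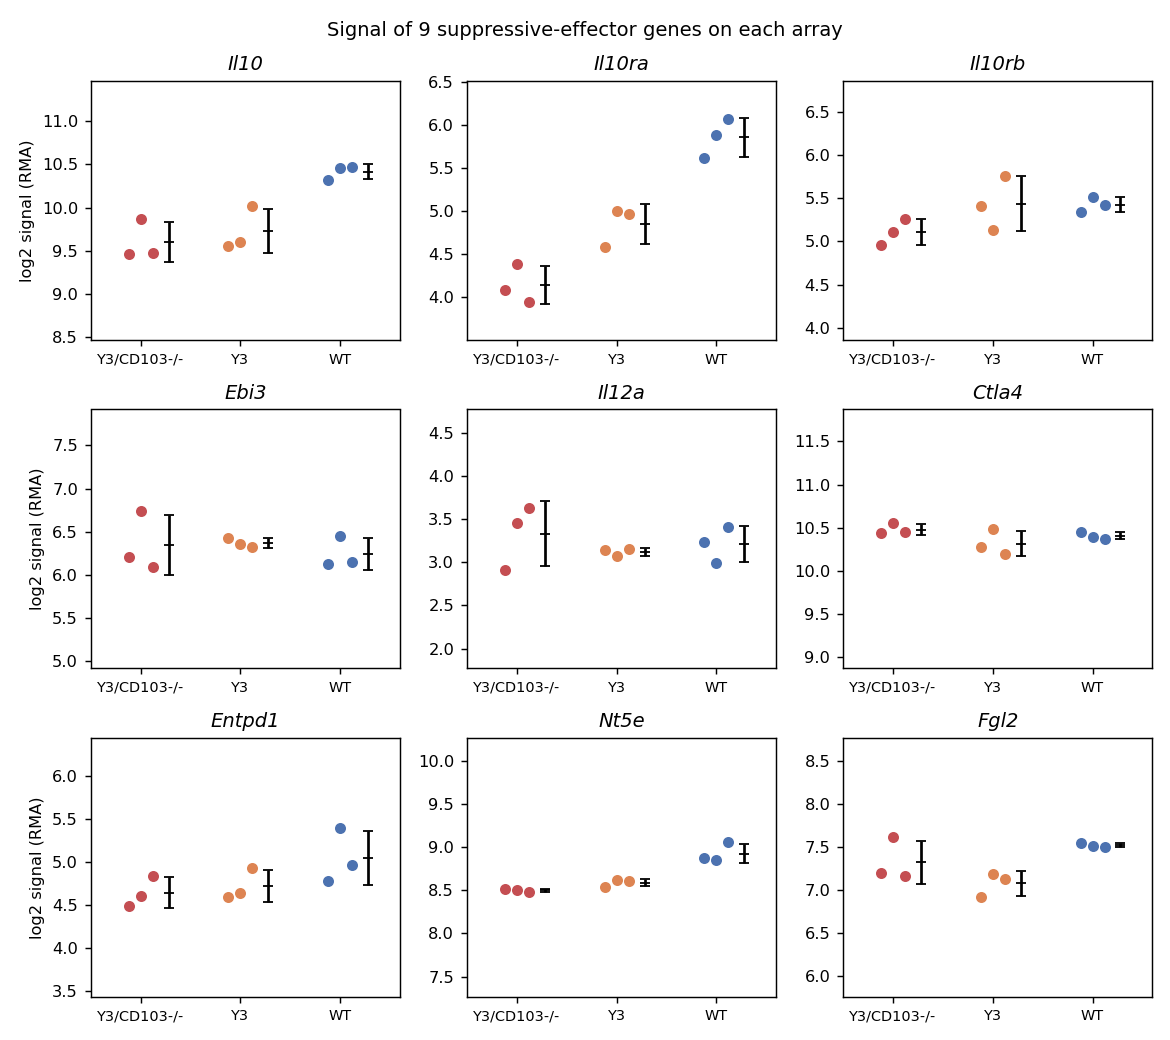
Log2 signal of the 9 genes (vertical axis, a range of equal height in each panel) on each array, grouped by genotype, with the mean and SD of 3 arrays beside the points. Il10ra separated all 3 genotypes, at 3.95 to 4.38 in Y3/CD103-/-, 4.58 to 5.00 in Y3 and 5.62 to 6.06 in WT. Nt5e did so too, at 8.48 to 8.51 in Y3/CD103-/-, 8.54 to 8.62 in Y3 and 8.85 to 9.05 in WT. Il10 separated WT from both others.

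The ectoenzyme gene Nt5e, whose product CD73 makes adenosine, had tight replicates. Its log2 signals were 8.51, 8.51 and 8.48 on the Y3/CD103-/- arrays, 8.54, 8.62 and 8.60 on the Y3 arrays and 8.87, 8.85 and 9.05 on the WT arrays. The genotypes lay in separate ranges, in the same order as for Il10ra. The differences were small and did not pass: -0.43 ± 0.14 log2 (SE) in Y3/CD103-/- against WT (limma adjusted p = 0.203), -0.34 ± 0.14 in Y3 against WT (limma adjusted p = 0.255) and -0.09 ± 0.14 in Y3/CD103-/- against Y3 (limma adjusted p = 0.865). With the trend and robust spread estimate, the difference of Y3/CD103-/- from WT had a limma adjusted p of 0.0166.

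Entpd1, which encodes the ATP-degrading partner CD39, had log2 signals of 4.48, 4.61 and 4.83 on the Y3/CD103-/- arrays, 4.60, 4.63 and 4.93 on the Y3 arrays and 4.77, 5.39 and 4.96 on the WT arrays. The ranges of all 3 genotypes overlapped, and WT array 2 stood highest. Its log2 difference from WT was -0.40 in Y3/CD103-/- (interval -0.83 to 0.03, limma adjusted p = 0.41) and -0.32 in Y3 (interval -0.75 to 0.11, limma adjusted p = 0.419). WT array 2 was also the highest array for the epithelial and the myeloid list, and the part of those cells was not tested. Myeloid cells also express CD39.

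Fgl2 had log2 signals of 7.19, 7.61 and 7.16 on the Y3/CD103-/- arrays, 6.92, 7.19 and 7.13 on the Y3 arrays and 7.55, 7.51 and 7.50 on the WT arrays. Every Y3 array lay below every WT array, and Y3/CD103-/- array 2 stood above all others. The log2 difference was -0.20 in Y3/CD103-/- against WT (interval -0.57 to 0.17, limma adjusted p = 0.657), -0.44 in Y3 against WT (interval -0.81 to -0.07, limma adjusted p = 0.224) and 0.24 in Y3/CD103-/- against Y3 (limma adjusted p = 0.646). Macrophages express Fgl2 too. The mean log2 signal of the myeloid list was lowest on the Y3 arrays, while its summed signal there overlapped that of Y3/CD103-/-, and the part of such cells was not tested.

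Ctla4, the checkpoint receptor, did not pass in any comparison. It had log2 signals of 10.43, 10.55 and 10.45 on the Y3/CD103-/- arrays, 10.28, 10.48 and 10.19 on the Y3 arrays and 10.45, 10.40 and 10.37 on the WT arrays, and the ranges overlapped in all 3 comparisons. The intervals were the narrowest among the members besides Nt5e: the log2 difference lay between -0.25 and 0.39 in Y3/CD103-/- against WT (estimate 0.07, limma adjusted p = 0.882) and between -0.41 and 0.23 in Y3 against WT (estimate -0.09, limma adjusted p = 0.776). As deposited, a change of 1.5-fold in either direction is outside both. With each array centred on the median of the tested genes, the Y3 estimate moved to -0.26, and no interval was taken there.

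Neither subunit of IL-35 passed. Ebi3 had log2 signals of 6.20, 6.74 and 6.10 on the Y3/CD103-/- arrays, 6.43, 6.36 and 6.32 on the Y3 arrays and 6.12, 6.45 and 6.15 on the WT arrays. The genotypes overlapped, with differences from WT of 0.10 log2 in Y3/CD103-/- (interval -0.32 to 0.52) and 0.13 in Y3 (interval -0.29 to 0.55, -0.05 after quantile normalization). A second, dimmer feature of Ebi3 gave 0.02 in Y3/CD103-/- and 0.21 in Y3, with limma adjusted p of 0.98 and 0.541.

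Il12a had log2 signals of 2.92, 3.46 and 3.63 on the Y3/CD103-/- arrays, 3.14, 3.07 and 3.16 on the Y3 arrays and 3.23, 2.99 and 3.41 on the WT arrays. It exceeded the median of its array on 4 of 9 arrays and on none of the Y3 arrays, so its signal lay near the middle of all features. Its differences from WT were 0.12 in Y3/CD103-/- (interval -0.32 to 0.56) and -0.09 in Y3 (interval -0.53 to 0.35), and neither passed.

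As a group, 1 of the 9 genes fell and 0 rose in Y3/CD103-/- against WT. Of all tested genes, 0.836% changed there, 0.281% falling and 0.555% rising. In Y3 against WT, 1 member fell and 0 rose, where 0.79% of all tested genes changed, 0.172% falling and 0.618% rising. Between Y3/CD103-/- and Y3, 0 of 9 passed in limma, where 0.00782% of tested genes changed.

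By an unadjusted p under 0.05, 3 members were lower and 0 higher in Y3/CD103-/- against WT, where 5.35% of tested genes were lower and 7.9% higher. In Y3 against WT, 4 were lower and 0 higher, where 3.6% of tested genes were lower and 13.4% higher. In Y3/CD103-/- against Y3, 1 was lower, where 8.12% of tested genes were. The arrays lay wholly below those of WT for 4 members in Y3/CD103-/-, where 6.68% of tested genes did so, and for 4 in Y3, where 4.93% did. The Y3/CD103-/- arrays lay wholly below those of Y3 for 2 members, Il10ra and Nt5e, where 14.4% of tested genes did.

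The median log2 difference of the 9 genes was -0.32 in Y3/CD103-/- against WT, with 0.04 over all tested genes, and -0.32 in Y3 against WT, with 0.15 over all tested genes. The shift of all genes in Y3 depended on the scaling and was 0.04 after quantile normalization. Differences relative to that shift were taken with each array centred on the median of the tested genes. In Y3 they were -1.17 for Il10ra (limma adjusted p = 0.0335), -0.86 for Il10 (0.0588), -0.61 for Fgl2 (0.175), -0.50 for Nt5e (0.175) and -0.49 for Entpd1 (0.296). The others were nearer 0, at -0.26 for Ctla4 (limma adjusted p = 0.542), -0.25 for Il12a (0.639), -0.16 for Il10rb (0.746) and -0.04 for Ebi3 (0.955). In Y3, 7 members were lower and 2 higher as deposited, and 9 were lower after quantile normalization or this centring. In Y3/CD103-/- against WT, 6 were lower and 3 higher under each of these scalings. As deposited, 29.5% of tested genes were lower in Y3 and 44.9% in Y3/CD103-/-.

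**Figure D3:**
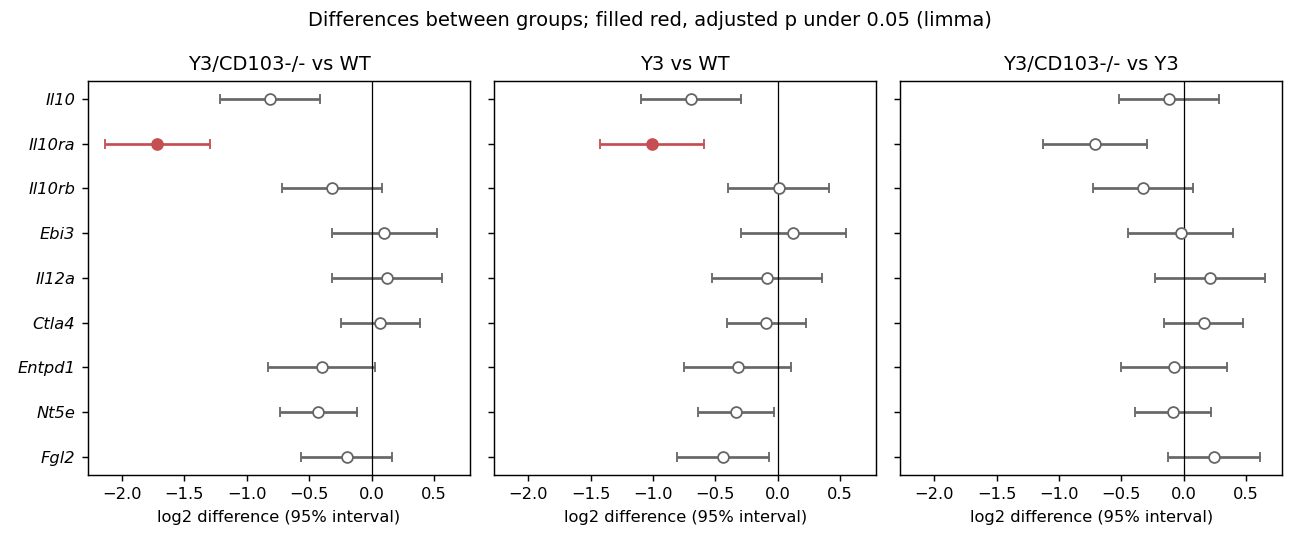
Log2 difference (horizontal axis) of each gene in 3 comparisons, as the limma estimate with its 95% interval. Filled red points passed an adjusted p of 0.05, which Il10ra did in both comparisons with WT, at -1.72 in Y3/CD103-/- and -1.01 in Y3.

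**Figure D4:**
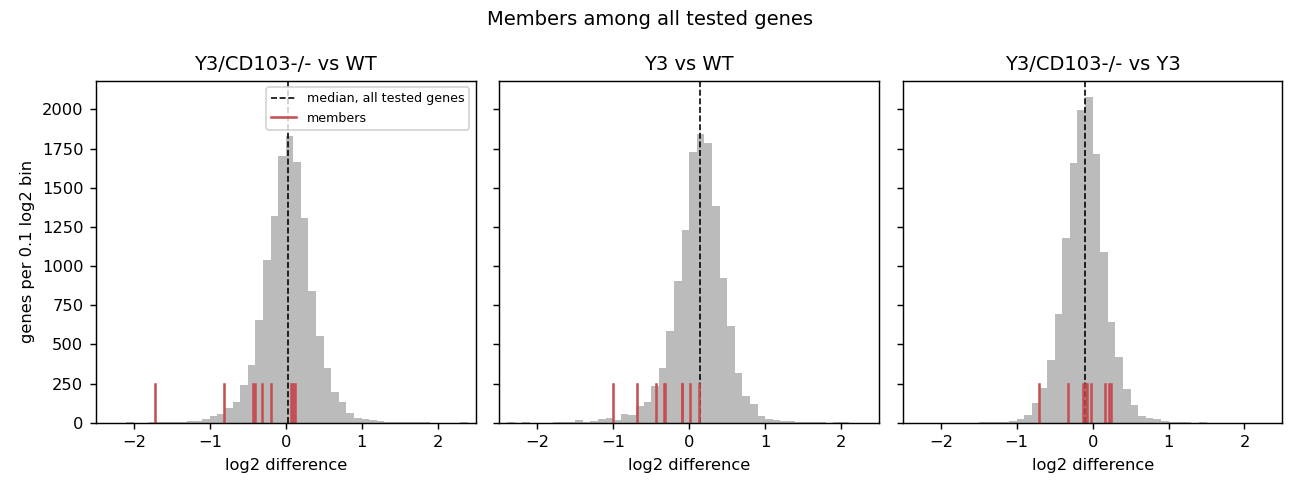
Histograms of the log2 differences of 12792 tested genes (horizontal axis) in 3 comparisons, as genes per bin of 0.1 log2, with the 9 members as red lines and the median of all tested genes dashed. In the comparisons with WT, Il10ra and Il10 lay in the lower tail, and Ebi3 lay near the middle. Ctla4 and Il12a lay near the middle in Y3/CD103-/-. In Y3 both were at -0.09, below the median of 0.15.

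Promoters were looked up for sequence shared by members that lay below WT. The RefSeq promoter table (GRCm38.p6) matched 6 of the 9 genes: Ebi3, Il12a, Ctla4, Entpd1, Nt5e and Fgl2. It held no entry for Il10, Il10rb or Il10ra, the member that passed, so the search could not cover these genes. The 250 bases before the start of transcription are shown for Fgl2 and Nt5e, the matched genes whose Y3 arrays all lay below WT, at chr5:21372423-21372672 and chr9:88327359-88327608, both on the plus strand. Capitals mark matches to TTCNNNGAA, the palindromic pattern bound by STAT factors, and to TGANTCA, the pattern bound by AP-1 factors, searched on both strands. The matches did not overlap.
Fgl2: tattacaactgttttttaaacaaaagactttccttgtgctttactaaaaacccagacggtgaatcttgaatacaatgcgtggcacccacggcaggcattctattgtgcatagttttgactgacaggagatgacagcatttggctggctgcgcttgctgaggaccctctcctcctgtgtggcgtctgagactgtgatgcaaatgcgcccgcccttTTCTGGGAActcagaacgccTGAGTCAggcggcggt
Nt5e: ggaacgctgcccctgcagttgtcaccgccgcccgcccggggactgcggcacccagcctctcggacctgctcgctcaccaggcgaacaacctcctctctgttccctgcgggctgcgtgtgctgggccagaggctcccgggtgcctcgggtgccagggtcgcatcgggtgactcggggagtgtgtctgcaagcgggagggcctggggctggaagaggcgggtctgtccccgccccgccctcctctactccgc
The STAT pattern of Fgl2 began 36 bases before the start and the AP-1 pattern 16 bases before it. In windows of the same length, 7.02% of 32851 RefSeq promoters held the STAT pattern and 6.75% held the AP-1 pattern. Nt5e held neither, and its window had a G and C content of 72%, against 49.6% for Fgl2. None of the other matched members held either pattern in this window. GGAAA (the NFAT core), TGCTGA (a partial MAF site) and the joint IRF and PRDM1 pattern were searched too and are in 55.6%, 16.1% and 2.98% of the promoters. Fgl2 held 1 match to the NFAT core and 1 to the partial MAF site, and Nt5e held 0 of the 3.

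Of 10 measured signalling genes downstream of the IL-10 receptor, 1 rose and 0 fell in each comparison with WT. Among all tested genes, 0.555% rose and 0.281% fell in Y3/CD103-/-, and 0.618% rose and 0.172% fell in Y3. Stat3, the transcription factor that relays IL-10, rose by 0.74 log2 in Y3/CD103-/- (limma adjusted p = 0.0447) and differed by 0.51 in Y3 (0.123). Socs3, a feedback inhibitor induced by STAT3, rose by 0.91 in Y3 (limma adjusted p = 0.0392) and differed by 0.71 in Y3/CD103-/- (0.0922). Both calls rested on all arrays, since leaving out any 1 of the 9 ended them (limma adjusted p up to 0.134 for Stat3 and 0.202 for Socs3). Il4ra, a receptor chain that IL-10 raises in macrophages, differed by 0.28 in Y3/CD103-/- and 0.01 in Y3. The median of the list was 0.28 in Y3/CD103-/- and 0.39 in Y3, where all tested genes had 0.04 in Y3/CD103-/- and 0.15 in Y3.

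Of 19 measured regulators of Il10 in T cells, 1 rose and 0 fell in Y3/CD103-/- against WT, the gene being Stat3. Against WT, 2 rose and 0 fell in Y3. The share of all tested genes that rose was 0.555% in Y3/CD103-/- and 0.618% in Y3. In Y3, Batf, an AP-1 factor of effector T cells, rose by 0.83 log2 (limma adjusted p = 0.032, passing in 4 of 9 fits without 1 array), and Tbx21, which encodes T-bet, by 1.07 (limma adjusted p = 0.0238, passing in 6 of 9). Gata3, a factor of type 2 T cells and tissue Tregs, differed by -0.60 in Y3/CD103-/- and -0.69 in Y3 and did not pass (limma adjusted p = 0.0847 in Y3/CD103-/- and 0.0551 in Y3). Nfatc2, a factor driven by calcium signals, differed by 0.48 in Y3/CD103-/- and 0.11 in Y3. The list median was 0.26 in Y3/CD103-/- and 0.10 in Y3.

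Of 11 genes of the IL-10 family and its receptors, 3 passed the filter on dim genes, namely Ifnl2, Ifnl3 and Il22ra1. With limma, 0 of them changed and 0 reached an unadjusted p under 0.05, with differences from WT between -0.25 and 0.26. Of 7 measured receptor chains and subunits of the IL-12 family, 1 rose and 1 fell in Y3/CD103-/- and 1 rose in Y3. Among all tested genes, 0.555% rose and 0.281% fell in Y3/CD103-/-, and 0.618% rose in Y3. Il12rb2, a chain of the IL-12 receptor that also takes part in IL-35 receptors, rose by 2.15 log2 in Y3/CD103-/- (limma adjusted p = 0.000934) and 2.08 in Y3 (limma adjusted p = 0.00161), and passed whichever array was left out. Il6st encodes gp130, the other chain named for IL-35 and a chain of the IL-6 receptor. It fell by 0.88 log2 in Y3/CD103-/- (limma adjusted p = 0.0447, passing in 1 of 9 fits without 1 array) and differed by -0.65 in Y3 (limma adjusted p = 0.106). Il27ra, the IL-27 receptor chain, differed by 0.58 in Y3/CD103-/- (limma adjusted p = 0.187) and 0.80 in Y3 (limma adjusted p = 0.0753).

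In the adenosine and purine pathway, 0 of 15 measured genes passed in limma in any comparison. By an unadjusted p under 0.05, 0 differed in Y3/CD103-/- against WT, where 7.9% of tested genes were higher and 5.35% lower. In Y3 against WT, 3 were higher, where 13.4% of tested genes were. In Y3/CD103-/- against Y3, 1 was lower, where 8.12% of tested genes were. P2rx7, the ATP-gated channel, differed by 0.25 log2 in Y3/CD103-/- (limma adjusted p = 0.534) and 0.51 in Y3 (limma adjusted p = 0.145). Dpp4, a peptidase that binds adenosine deaminase in humans, differed by 0.14 in Y3/CD103-/- and 0.47 in Y3. Adk, adenosine kinase, differed by -0.59 in Y3/CD103-/- and -0.06 in Y3, and Pnp, which splits inosine, by 0.46 in Y3/CD103-/- and 0.28 in Y3. Slc29a3, a nucleoside transporter, differed by -0.72 in Y3/CD103-/- against Y3 (limma adjusted p = 0.308).

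Among partners of CTLA-4, 0 of 19 measured genes passed in limma. In each comparison with WT, 3 were higher and 2 lower by an unadjusted p under 0.05. Across all tested genes, 7.9% were higher and 5.35% lower by that measure in Y3/CD103-/-, and 13.4% and 3.6% in Y3. Cd86, a ligand carried by antigen-presenting cells, was the lowest of the 19 in both. It differed by -1.23 log2 in Y3/CD103-/- (limma adjusted p = 0.0596) and -1.16 in Y3 (limma adjusted p = 0.0734). The myeloid list, of which 13 of 22 tested genes were lower in Y3/CD103-/- and 17 in Y3, had medians of -0.07 in Y3/CD103-/- and -0.39 in Y3, and the part of such cells was not tested. Trat1, an adaptor that helps bring CTLA-4 to the surface, differed by 0.63 in Y3/CD103-/- (limma adjusted p = 0.0936) and 0.69 in Y3 (limma adjusted p = 0.0721). Ptpn11, the phosphatase SHP-2, differed by 0.47 in Y3/CD103-/- and 0.85 in Y3, and Ppp2r1a, a subunit of the phosphatase PP2A, by 0.32 in Y3/CD103-/- and 0.11 in Y3.

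Of 9 measured genes around FGL2 and TIGIT, 0 passed in limma. In Y3/CD103-/- against WT, 1 was higher and 3 lower by an unadjusted p under 0.05, where 7.9% and 5.35% of tested genes were. In Y3 against WT, 1 was higher and 1 lower, where 13.4% and 3.6% of tested genes were. Pvr, a ligand of TIGIT, differed by -0.64 in Y3/CD103-/- (limma adjusted p = 0.0596) and -0.02 in Y3. Cd96, a receptor of the same family, differed by 0.49 in Y3/CD103-/- and 0.66 in Y3. Cd226, the activating counterpart of TIGIT, differed by -0.47 in Y3/CD103-/- and 0.13 in Y3. The Fc receptor genes Fcgr3 and Fcer1g, which are also in the myeloid list, differed by -0.69 and -0.37 in Y3/CD103-/- and by -0.37 and -0.87 in Y3.

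Of 25 other effector molecules measured, 3 rose and 3 fell in Y3/CD103-/- against WT, and 2 rose and 1 fell in Y3 against WT. Across all tested genes, 0.555% rose and 0.281% fell in Y3/CD103-/-, and 0.618% rose and 0.172% fell in Y3. The granzyme genes Gzma and Gzmb, whose products kill target cells, rose by 1.30 and 1.07 log2 in Y3/CD103-/- and by 1.22 and 0.89 in Y3 (limma adjusted p from 0.00537 to 0.0225). In Y3/CD103-/- both passed whichever array was left out, and in Y3 Gzma passed in 8 and Gzmb in 5 of 9 such fits. The summed linear signal of 14 CD8, γδ and NK cell markers ran from 727 to 1083 on Y3/CD103-/- arrays, from 988 to 1166 on Y3 arrays and from 321 to 440 on WT arrays, with Cd8b1, Ncr1 and Nkg7 above the array median on all 9 arrays and Klrd1, Klrk1 and Klre1 on 0. The mean log2 signal of the list overlapped between Y3/CD103-/- and WT, at 3.91 to 4.28 on Y3/CD103-/- arrays, 4.05 to 4.11 on Y3 arrays and 3.71 to 4.001 on WT arrays. Of its 10 tested genes, 5 were higher and 5 lower in Y3/CD103-/- against WT (median 0.10), and 6 were higher and 4 lower in Y3 against WT (median 0.19). With limma, 1 gene of the list rose and 0 fell in Y3/CD103-/- against WT, and 2 rose and 0 fell in Y3 against WT. Nkg7, a gene of cytotoxic granules, had the largest difference, 1.93 in Y3/CD103-/- and 2.03 in Y3. The part of such cells was not tested.

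Furin, the protease that matures TGF-β, rose by 1.03 log2 in Y3/CD103-/- (limma adjusted p = 0.0337) and differed by 0.53 in Y3. Lrrc32, which encodes GARP, the anchor of latent TGF-β, fell by 1.07 log2 in Y3/CD103-/- (limma adjusted p = 0.0498) and differed by -0.89 in Y3 (limma adjusted p = 0.0898). Il2ra, the IL-2 receptor α chain, fell by 0.86 log2 in Y3/CD103-/- (limma adjusted p = 0.0258) and differed by -0.65 in Y3 (limma adjusted p = 0.079). Nrp1, a surface receptor of thymic Tregs, fell by 1.29 log2 in Y3/CD103-/- and 0.88 in Y3 (limma adjusted p = 0.00976 in Y3/CD103-/- and 0.0497 in Y3). In Y3/CD103-/-, Nrp1 passed in 9 of 9 fits without 1 array, Furin and Il2ra in 1 and Lrrc32 in 0. In Y3, Nrp1 passed in 1. Nrp1 was dim, with a mean log2 signal of 3.52 in Y3/CD103-/-, 3.94 in Y3 and 4.81 in WT. Array medians lay between 3.15 and 3.23, so its signal in Y3/CD103-/- was near the middle of all features. Izumo1r, the folate receptor 4 gene, differed by -0.67 in Y3/CD103-/- (limma adjusted p = 0.116) and -0.17 in Y3.

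**Figure D5:**
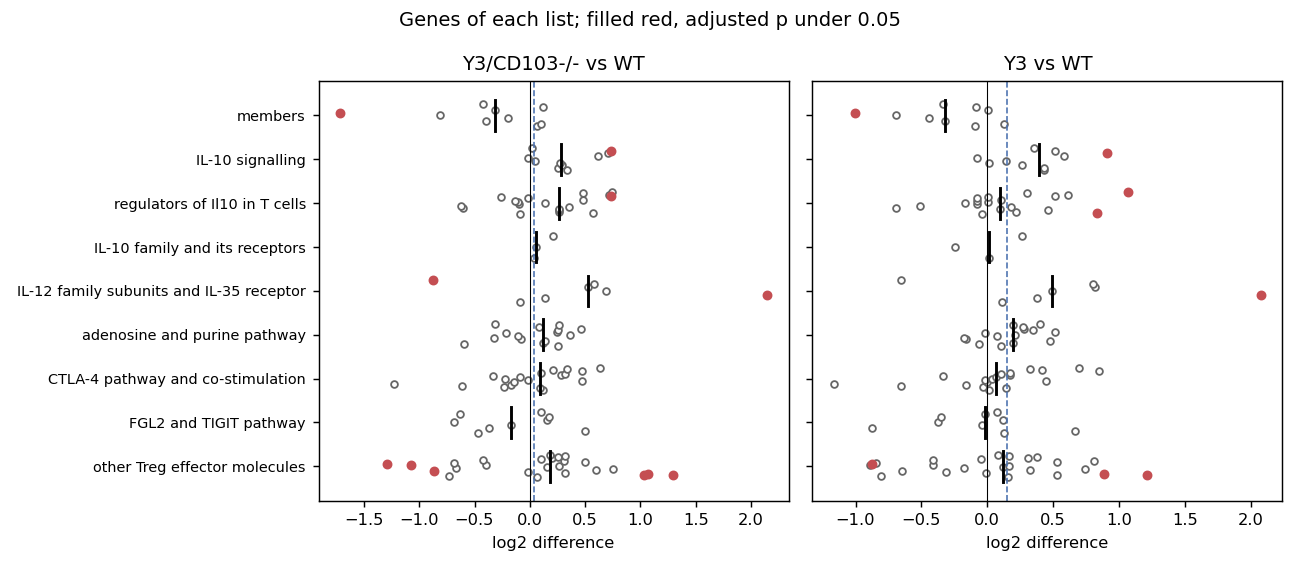
Log2 differences (horizontal axis) of the tested genes of each list in both comparisons with WT, 1 point per gene, with the list median as a black bar and the median of all tested genes as a blue dashed line. Filled red points passed an adjusted p of 0.05. The member median lay at -0.32 in both panels, and the IL-10 signalling median at 0.28 in Y3/CD103-/- and 0.39 in Y3.

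Profiles most alike to Il10 and Il10ra were found as the smallest root mean square difference between log2 profiles over 9 arrays, each centred on its own mean. For Il10 they were Pde2a (0.131 log2), Rrad (0.145) and 4930503L19Rik (0.149), with a median of 0.497 over all other tested genes. For Il10ra they were Prg4 (0.228), Nrp1 (0.253) and Clec2i (0.309), with a median of 0.796. Nrp1 is among the other effector molecules, and Pde2a encodes a phosphodiesterase that breaks down cyclic nucleotides. The profiles hold the differences between genotypes, so like differences from WT follow from how these genes were picked and are no separate result. In Y3/CD103-/- against WT they were -0.72 for Pde2a, -0.76 for Rrad and -0.65 for 4930503L19Rik, beside -0.81 for Il10. For Prg4, Nrp1 and Clec2i they were -1.41, -1.29 and -1.11, beside -1.72 for Il10ra.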

How the data were processed

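Signals of 9 arrays were used as deposited. The authors used RMA, per the submitters' processing notes, and the deposited values are taken as log2 from their range of 0.115 to 14.05. The RMA settings and genome build were stated nowhere in the sources used here. Array medians lay between 3.15 and 3.23. The SD of the signals was 1.87 on Y3 array 1 and 1.88 on Y3 array 3, and 1.70 to 1.77 on the other arrays. Of 39137 features, the platform annotation gave 23521 exactly 1 gene, 1814 several and 13802 none, and only the first were used. The brightest feature stood for each of 22180 genes, and 12792 passed the filter.

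Groups were compared with limma 3.58.1 in R 4.3.3, in 1 model of group means over 9 arrays, 2-sided, with Benjamini-Hochberg adjustment over all tested genes and a threshold of 0.05. The median gene's 95% interval reached 0.45 log2 to either side. In data simulated for Y3/CD103-/- versus WT over 12792 genes, the test found 62% of changes of 2-fold and 94% of those of 4-fold, beside 4 false calls. The simulated noise was normal and independent, with the same SD for a gene on every array. Shifts or wider spread of whole arrays were not simulated, so these figures do not cover them.

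Members and lists were chosen with earlier results of these data known. All members were named. Of each list, genes that passed and the 2 of smallest p per comparison were named, plus label checks and the 3 most alike profiles of Il10 and of members that passed. The titles do not say that same-numbered arrays are paired, so the main model had no block and a block was run as an alternative. Same-numbered arrays deviated from their group means with correlations of -0.04 to 0.11. Alternatives changed the filter, feature rule, scaling, variance model, weights, arrays, block and threshold. Averaging Y3 arrays 1 and 3 and centring on the tested genes were added after seeing the data. Promoter sequence came from RefSeq (GRCm38.p6).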

Additional observations from a re-analysis of the deposited data

How the results depend on the processing

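Il10ra kept its fall in Y3/CD103-/- under every setting tried. Its fall in Y3 did not pass without a filter on dim genes (limma adjusted p = 0.0724), with only the arrays of both groups (0.0621), with the replicate block (0.0568) or with Y3 arrays 1 and 3, the most alike pair, averaged (0.161), so 0 members passed there. Members that passed numbered 2 in Y3 and 3 in Y3/CD103-/- with trend and robust, and 2 in Y3/CD103-/- at an adjusted p under 0.10. With an array left out they numbered 0 to 1 in Y3.

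The count of all genes that changed in Y3, 101 as reported, was 52 without a filter, 346 with trend and robust, 346 with array weights, 63 with only both groups' arrays, 54 with the replicate block, 12 with Y3 arrays 1 and 3 averaged, 299 at 0.10 and 8 to 120 with an array left out. In Y3/CD103-/- the count of 107 was 54, 309, 60, 17, 55, 70 and 280 in the same order, 161 with a stricter filter and 29 to 72 with an array left out. Against Y3 the count of 1 was 2 with the stricter filter, 3 with features averaged, 2 with features tested singly, 10 with trend and robust, 9 with weights, 2 at 0.10 and 1 to 2 with an array left out. The share of rises among calls in Y3 moved with scaling, from 79 up and 22 down to 46 and 32 after quantile normalization and 46 and 54 after centring on the tested genes.

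Signs turned only for members that had not passed. After quantile normalization these were Il10rb (-0.18) and Ebi3 (-0.050) in Y3, and Ebi3 (0.093) and Entpd1 (0.047) against Y3. After centring on the tested genes they were Il10rb (-0.16) and Ebi3 (-0.040) in Y3, and Il10 (0.028), Ebi3 (0.12), Entpd1 (0.069) and Nt5e (0.059) against Y3. With Y3 arrays 1 and 3 averaged, Il10rb was at -0.068 in Y3. With an array left out, ranges that crossed 0 were those of Il10rb (-0.16 to 0.16) and Il12a (-0.20 to 0.0095) in Y3, Ebi3 (-0.094 to 0.23) and Il12a (-0.024 to 0.33) in Y3/CD103-/-, and Ebi3 (-0.22 to 0.10), Il10 (-0.26 to 0.026) and Entpd1 (-0.18 to 0.026) against Y3. The cause of these changes was not tested. Il12a gave no value under the stricter filter, and its signal near the array median limits what can be measured.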
